A study of Homo sapiens with 6 samples.

Results

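The genes described here are the replication-dependent histone genes of the human genome, taken as the protein-coding genes of gencode release 44 with the symbols H1-1 to H1-6, H2AC, H2BC, H3C or H4C followed by a number. They were selected on earlier results of these same contrasts, in which histone genes were seen to be higher after depletion, so the values below describe them and carry no test of their own. Of 69 such genes, 67 were listed in the deposited tables among 60676 genes in all. They were 6 genes of the H1 class, 15 of H2A, 18 of H2B, 13 of H3 and 15 of H4. H2AC18 and H2AC19 were not analysed here.

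Histones H2A, H2B, H3 and H4 form the core around which DNA is wrapped, and H1 linker histones bind where the DNA enters and leaves it. Replication-dependent histone genes are transcribed mainly in S phase, when new DNA has to be packaged, and lie in clusters, often as divergent pairs of an H2A and an H2B gene. Their mRNAs usually end in a short stem-loop that is bound by SLBP and cut by a complex with the U7 snRNP, without a poly(A) tail. Polyadenylated forms arise when a transcript runs on to a downstream poly(A) site. Replacement histones such as H3-3B are made throughout the cell cycle from ordinary polyadenylated mRNAs.

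HT29 is an established human colorectal adenocarcinoma line. Cells were kept for 48 h in control medium (untreated), in medium without histidine (histidine-depleted) or in medium without tryptophan (tryptophan-depleted), with 2 libraries per group and 6 in all. The design asks how the loss of histidine changes the transcriptome and uses the loss of tryptophan as a control for amino acid stress. The libraries were made from polyadenylated mRNA, so histone mRNAs that end at the stem-loop are poorly captured, and a change in their amount cannot be told apart from a change in their polyadenylation. RPMI was the base of the medium lacking histidine and DMEM F-12 that of the medium lacking tryptophan. The control medium of the RNA-seq samples was not named in the sources used here, while the study's proteomics used full RPMI. Both depleted media were prepared from powder and given dialyzed fetal bovine serum, and the serum of the RNA-seq control was not named either. Any effect of base medium, serum or preparation cannot be told apart from that of tryptophan depletion. The same holds for histidine depletion, unless the control here matched its medium in all of these. The labels do not say whether the 2 libraries of a group came from separate cultures. The p-values below then rest only on the spread between libraries, which limma pools in part over genes of similar level.

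The libraries held 46390819 to 64388876 reads assigned to genes. Levels are given as scaled reads, which are reads divided by a size factor set over all 6 libraries. Of the 11 markers of colon epithelium, 10 had reads in every library, and CDX1, with 21.9 and 18.9 scaled reads in untreated libraries, had 0 in both histidine-depleted ones. Their summed level was 448910 to 635900 scaled reads. The 6 leukocyte markers summed to 2.04 to 22.9 scaled reads, and 2 of them had no reads. The 6 markers of fibroblasts and endothelium summed to 81.3 to 124 scaled reads, with 1 at 0. The 2 untreated libraries differed more from each other than those of the other groups, with a chi-square per degree of freedom over genes of 9.74 against 4.40 for histidine and 1.94 for tryptophan depletion.

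The stem-loop was looked for in the 150 bases after each stop codon in the GRCh38 reference, and 64 of the 67 genes carried it, beginning 23 to 63 bases after the stop. It is shown because it is the feature that sets these mRNAs apart from all others. The 4 forms found in more than 1 gene are given below on the strand of the gene, 5′ to 3′, with the loop of 4 bases in capitals between the arms of the 6-base stem.
H2AC6, chr6:26124669-26124684: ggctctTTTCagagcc
H2BC5, chr6:26158587-26158602: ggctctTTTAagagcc
H4C8, chr6:26285131-26285146: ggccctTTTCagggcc
H4C9, chr6:27139654-27139669: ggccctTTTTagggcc

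The form shown for H2AC6 was found in 38 genes of the H1, H2A, H2B and H3 classes, and that of H2BC5 in 9 genes of the same classes. The forms of H4C8 and H4C9 were found in 10 and 4 genes, all of the H4 class, and 3 further forms in 1 H2A gene each. H3C6, H2BC10 and H4C13 had no match. In 48 genes, the annotated transcripts ended close to the stem-loop (at most 200 bases past it), and these are called short models here. In the other 16, at least 1 annotated transcript ran further, to a downstream end, and these are called extended models. They were 8 H2B, 4 H4, 3 H2A genes and 1 H3 gene.

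Most of the family was higher after histidine depletion, and a smaller part of it after tryptophan depletion. The summed level of all 67 genes was 3022 and 3150 scaled reads in the untreated libraries, 33446 and 33537 in the histidine-depleted ones and 9150 and 9582 in the tryptophan-depleted ones. The 3 groups did not overlap. The sum was 10.9-fold higher after histidine and 3.02-fold higher after tryptophan depletion than in untreated cells. Of the 67 genes, 28 had a mean of at least 10 scaled reads in untreated cells. In 27 of these 28, both histidine-depleted libraries were above both untreated ones, and the other, H1-5, had a lower mean. After tryptophan depletion, both libraries were above both untreated ones in 24 of the 28, and 3 had a lower mean.

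Genes were tested with limma where their normalized counts averaged 10 or more over the libraries of a comparison. After histidine depletion, 38 members were tested, of which 11 had an untreated mean under 10 and so passed that limit through the depleted libraries. All 38 were called higher and 0 lower, with a median log2 fold change of 3.15, which was 2.35 when members with fewer reads were included. Of the 18288 genes tested, limma called 39.1% higher and 38.2% lower, with a median of 0.010. After tryptophan depletion, 29 members were tested, of which 2 had an untreated mean under 10. Of these, 21 were called higher, 0 lower and 8 not called, with a median of 1.09. That median was 0.42 without the limit on the level and 1.54 at a mean of at least 50. In this comparison limma called 36.1% of the 17960 genes tested higher and 34.8% lower, with a median of 0.013. The members called lower also numbered 0 at an unadjusted p under 0.05 and with edgeR and DESeq2, counts that the limit on the level helps to set, since all 38 tested after histidine depletion were called higher and members that were lower mostly had too few reads to be tested. Without that limit 2 members (H1-5 and H4C1) were called lower after histidine and 4 (H1-5, H2AC20, H3C1 and H4C1) after tryptophan depletion. Since the members were chosen from these contrasts, the counts are a description.

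Without any limit on the level, 50 members had a higher mean after histidine depletion, 8 a lower mean and 9 no reads. Of the members with reads, 86.2% were higher, against 50.5% of all genes with reads. For tryptophan depletion the numbers were 34 higher, 23 lower and 10 without reads, which made 59.6% of those with reads, against 48.4% of all genes. The 9 genes without a read in any of the 6 libraries were H1-1, H2AC1, H2AC7, H2AC15, H2BC1, H2BC3, H3C4, H4C6 and H4C7. Of H3C4 and H2AC7, 96.6% and 85.3% of the exonic bases are also annotated to another gene on the same strand, where counting can assign a read to neither.

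**Figure D1:**
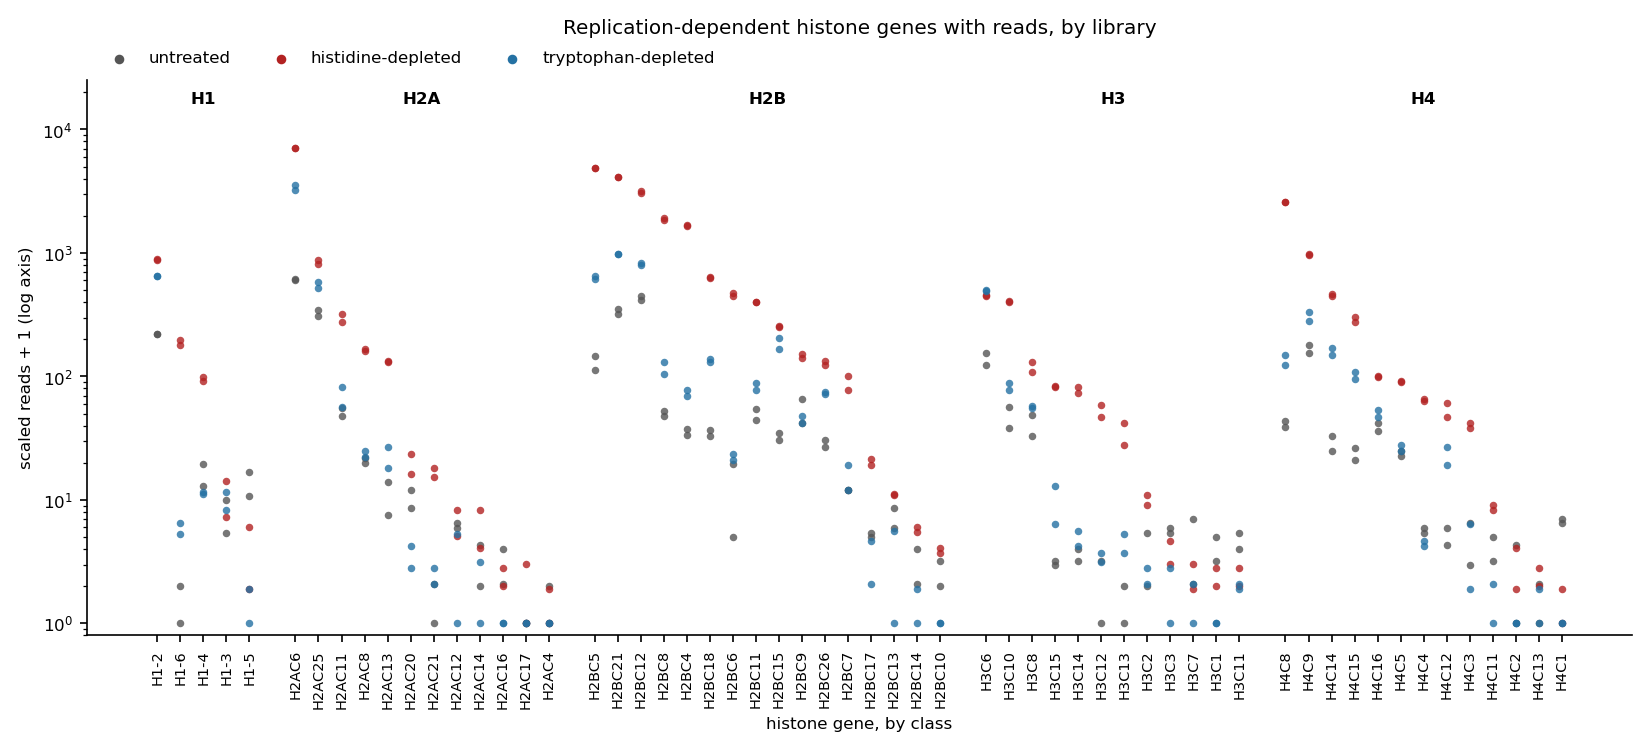
Level of each histone gene with reads, in scaled reads plus 1 on a log axis, with 1 point per library and the genes ordered within each class by their histidine-depleted mean. The histidine-depleted points lie above the untreated ones for nearly all genes at a high level, while H3C6 has its tryptophan-depleted points highest, and H1-5, H4C1 and a few other genes with few reads lie lower after depletion.

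By class, the H2B and H4 genes had the largest summed increase after histidine depletion, and that of H4 rested on H4C8, which held 55.6% of its sum there. Without the member with most reads in each class, the log2 difference was 3.59 for H2B, 3.075 for H1, 2.83 for H3, 2.795 for H4 and 1.82 for H2A. The H2B sum was 1191 and 1228 scaled reads in untreated, 17810 and 17859 in histidine-depleted and 3128 and 3203 in tryptophan-depleted libraries, a 14.8-fold and a 2.60-fold higher level. The H4 sum was 338 and 345, then 4659 and 4696, then 767 and 842, which was 13.8-fold and 2.34-fold higher. For H2A, sums of 1008 and 1053 became 8549 and 8589 without histidine and 3933 and 4197 without tryptophan, 8.37-fold and 3.92-fold higher. Without H2AC6 the log2 difference of the H2A sum after tryptophan depletion was 0.66 in place of 1.97. In every one of these classes the histidine-depleted libraries were highest and the untreated lowest, without overlap.

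The H3 and H1 classes had lower sums in untreated cells and smaller increases after histidine depletion. H3 genes summed to 232 and 268 scaled reads in untreated, 1233 in each of the histidine-depleted and 651 and 661 in tryptophan-depleted libraries, 4.98-fold and 2.62-fold higher. H3C6 held 75.6% of the H3 sum after tryptophan depletion, and without it the log2 difference there was 0.53 in place of 1.39. H1 genes summed to 254 and 256, then 1195 and 1161, then 671 and 679, which was 4.66-fold and 2.64-fold higher. Without H1-2 the log2 difference of the H1 sum after tryptophan depletion was -0.52. Each class sum rested on few genes, and the 4 genes with the most reads held 55.0% of the whole sum in untreated, 57.4% in histidine-depleted and 62.3% in tryptophan-depleted libraries.

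**Figure D2:**
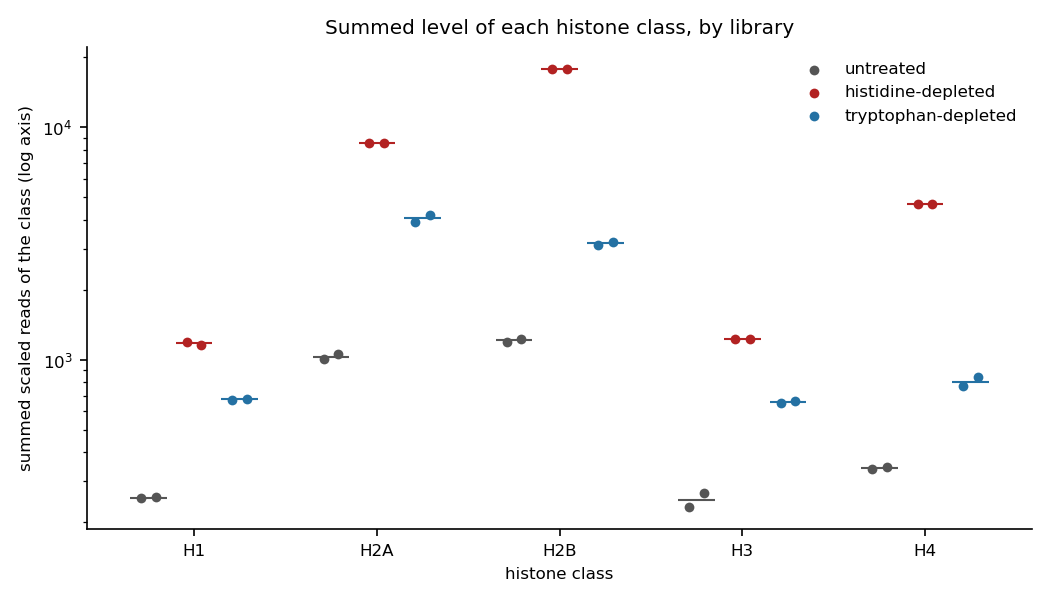
Summed scaled reads of each histone class on a log axis, with 1 point per library and a line at the mean of each group. In all 5 classes the histidine-depleted libraries lie highest, and the distance to the tryptophan-depleted ones is widest for H2B and H4.

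The make-up of the histone reads differed between the groups. H2B genes held 39.2% ± 0.301 (SD, n = 2) of them in untreated, 53.2% ± 0.00175 in histidine-depleted and 33.8% ± 0.534 in tryptophan-depleted libraries. The H2A share was 33.4% ± 0.0659, 25.6% ± 0.0348 and 43.4% ± 0.578 in the same order. For H4 it was 11.1% ± 0.155, 14.0% ± 0.05 and 8.59% ± 0.287. The H1 share was 8.25% ± 0.195, 3.52% ± 0.0793 and 7.21% ± 0.180, and the H3 share 8.08% ± 0.584, 3.68% ± 0.00723 and 7.01% ± 0.152. Thus the H2B and H4 shares were highest after histidine depletion and the H2A share after tryptophan depletion, with differences larger than the spread between the libraries of a group. The single gene H2AC6 made up 19.7% of the sum in untreated, 21.2% in histidine-depleted and 36.2% in tryptophan-depleted cells.

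H2B was the class with the most genes at a high level. H2BC5 (chr6:26158122-26171349) had 113 and 145 scaled reads in untreated, 4920 and 4841 in histidine-depleted and 611 and 651 in tryptophan-depleted libraries. Its log2 fold change was 5.25 ± 0.089 (SE, 2 libraries per group) after histidine and 2.29 ± 0.11 after tryptophan depletion. H2BC21 (chr1:149884459-149886682) had 320 and 351, then 4140 and 4160, then 972 in both tryptophan-depleted libraries, with log2 fold changes of 3.63 ± 0.065 and 1.53 ± 0.078. For both genes the 3 groups were apart, with the tryptophan-depleted libraries between the others.

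H2BC12 had the highest untreated level of the class, with 416 and 444 scaled reads, and reached 3045 and 3165 after histidine and 823 and 805 after tryptophan depletion. The fold changes of H2BC12 were 2.86 ± 0.065 and 0.91 ± 0.077 on the log2 scale. H2BC8 had 47.0 and 51.7 scaled reads, then 1846 and 1919, then 104 and 129, so that its log2 fold changes were 5.24 ± 0.10 and 1.21 ± 0.19. H2BC4 went from 32.8 and 36.8 to 1695 and 1668 after histidine depletion and to 76.8 and 68.7 after tryptophan depletion, with log2 fold changes of 5.57 ± 0.11 and 1.04 ± 0.23. Part of the H2BC4 exons (30.9%) lie opposite to exons of another gene on the other strand. Per length, H2BC12 led the class with 6273 scaled reads per kb of exon after histidine depletion, ahead of H2BC5 with 5668, and these 2 levels were close.

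H2BC15, H2AC6 and H4C14 had the largest increases of the members with a mean of at least 100 after tryptophan depletion. Their log2 fold changes of 2.49, 2.47 and 2.47 differed by less than the SE of H2BC15. H2BC15 had 33.9 and 29.8 scaled reads in untreated, 253 and 252 in histidine-depleted and 166 and 204 in tryptophan-depleted libraries. Its log2 fold changes were 2.96 ± 0.17 and 2.49 ± 0.19. Over the class, 13 of the 18 H2B genes were tested after histidine depletion and all 13 were called higher, from 1.49 for H2BC9 to 5.57 for H2BC4 (median 3.03). After tryptophan depletion, 10 of 12 tested were called higher, from -0.22 for H2BC9 to 2.49 for H2BC15 (median 1.18). H2BC7 and H2BC9 were not called. For comparison, 39.1% of all tested genes were called higher after histidine and 36.1% after tryptophan depletion. H2BC17, with an untreated mean of 4.18, was tested only through its histidine-depleted libraries.

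Among H2A genes, H2AC6 (chr6:26124145-26139116) stood far above the rest. It had 602 and 613 scaled reads in untreated, 7112 and 7062 in histidine-depleted and 3247 and 3542 in tryptophan-depleted libraries, with log2 fold changes of 3.55 ± 0.055 and 2.47 ± 0.058. The 3 groups were clearly apart, and the tryptophan-depleted level of H2AC6 was the only one of any member above 1000. H2AC25 had 305 and 341, then 812 and 871, then 582 and 522 scaled reads, with smaller log2 fold changes of 1.39 ± 0.086 and 0.76 ± 0.089.

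H2AC11 and H2AC8 were higher after histidine depletion, and their tryptophan-depleted libraries lay near the untreated ones. H2AC11 had 54.7 and 46.7 scaled reads in untreated, 276 and 318 in histidine-depleted and 55.5 and 80.6 in tryptophan-depleted libraries, with log2 fold changes of 2.54 ± 0.15 and 0.39 ± 0.22. For H2AC8 the values were 20.8 and 18.9, then 161 and 165, then 21.3 and 23.8, which gave 2.99 ± 0.21 and 0.17 ± 0.34. Neither gene was called after tryptophan depletion, but H2AC11 passed the threshold when tryptophan-depleted replicate 1 was left out. In all, 6 of 15 H2A genes were tested after histidine depletion and all 6 were called higher, from 0.95 for H2AC20 to 3.70 for H2AC13. After tryptophan depletion 3 of 5 tested were called higher. The shares of all tested genes called higher were 39.1% and 36.1%. H2AC20 and H2AC13 had untreated means of 9.30 and 9.74 and passed the limit on the level only through depleted libraries.

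The H4 gene H4C8 (chr6:26277609-26285638) had one of the widest distances between the depletions. It had 42.6 and 37.8 scaled reads in untreated, 2597 and 2605 in histidine-depleted and 124 and 148 in tryptophan-depleted libraries. The log2 fold change of H4C8 was 5.99 ± 0.10 after histidine and 1.72 ± 0.19 after tryptophan depletion. Of its exonic bases, 13.3% lie opposite to exons of another gene. H4C9, with the highest untreated level of the class, had 154 and 179 scaled reads, then 960 and 989, then 283 and 330, and log2 fold changes of 2.55 ± 0.095 and 0.87 ± 0.12. The 3 groups did not overlap in either gene.

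H4C14 and H4C15 are near-identical copies on chromosome 1, and 92.2% and 100% of the 150-base windows of their transcripts also occur in another gene. How the authors counted reads that fit both copies was not given in the sources used here, so their single levels are uncertain. H4C14 had 31.7 and 23.9 scaled reads in untreated, 448 and 463 in histidine-depleted and 147 and 169 in tryptophan-depleted libraries (log2 fold changes 4.01 ± 0.16 and 2.47 ± 0.20). H4C15 had 25.1 and 19.9, then 304 and 277, then 107 and 94.3 (3.65 ± 0.18 and 2.11 ± 0.24). Both had the same order of the groups. Of the 15 H4 genes, 9 were tested after histidine depletion and all 9 were called higher, from 1.37 for H4C16 to 5.99 for H4C8. After tryptophan depletion 5 of 7 tested were called higher. Among all tested genes these shares were 39.1% and 36.1%. H4C3, H4C4 and H4C12 had untreated means of 3.73, 4.67 and 4.13. They were tested only through depleted libraries, H4C12 after both depletions.

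H3C6 was the one tested member that was not called between the depletions, and its tryptophan-depleted libraries lay slightly above the histidine-depleted ones. It had 124 and 155 scaled reads in untreated, 446 and 458 in histidine-depleted and 491 and 501 in tryptophan-depleted libraries. Its log2 fold changes against untreated were 1.71 ± 0.12 and 1.83 ± 0.11, and that of histidine against tryptophan depletion was -0.13 ± 0.11. It is the only tested H3 gene without a match to the stem-loop. H3C10 had 37.2 and 55.7, then 405 and 399, then 87.5 and 76.9 scaled reads, with log2 fold changes of 3.12 ± 0.16 and 0.83 ± 0.21.

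H3C8 had 48.1 and 31.8 scaled reads in untreated, 129 and 108 in histidine-depleted and 54.4 and 56.8 in tryptophan-depleted libraries, and its log2 fold change was 1.58 ± 0.21 and 0.49 ± 0.24. The latter was not called, but passed the threshold without untreated replicate 1 and in a fit on all 6 libraries. H3C15 was nearly silent in untreated cells, with 2.19 and 1.99 scaled reads. It had 81.3 and 83.4 after histidine and 5.34 and 11.9 after tryptophan depletion (log2 fold change 4.76 ± 0.37 for histidine). That log2 fold change depends on the pseudocount and the method, and was 3.16 with a pseudocount of 8 and 5.31 with DESeq2. All 150-base windows of H3C15 also occur in another gene, as do 98.9% of those of H3C14. The median over the 7 tested of the 13 H3 genes was 4.44 after histidine depletion, and all 7 were called higher. Of these 7, H3C12, H3C13, H3C14 and H3C15 were tested through their histidine-depleted libraries only, with at most 2.98 scaled reads in any untreated library, and they set this median. The other 3 had lower values, 1.71 for H3C6, 1.58 for H3C8 and 3.12 for H3C10. After tryptophan depletion 2 of 3 tested H3 genes were called higher. All tested genes together were called higher in 39.1% of cases after histidine and 36.1% after tryptophan depletion.

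In the H1 class, most untreated reads came from H1-2, a linker histone of many cell types. H1-2 had 221 and 218 scaled reads in untreated, 894 and 872 in histidine-depleted and 646 and 655 in tryptophan-depleted libraries, with log2 fold changes of 2.01 ± 0.087 and 1.56 ± 0.092. H1-4 had 18.6 and 11.9, then 98.5 and 91.6, then 10.7 and 10.1 scaled reads, so that it was higher after histidine depletion (2.60 ± 0.26) and not called after tryptophan depletion (-0.49 ± 0.43). H1-3 had between 4.37 and 13.2 scaled reads in every library and was not tested.

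H1-6, the testis-specific linker histone, went from almost no reads to a clear level after histidine depletion. It had 0 and 0.995 scaled reads in untreated, 195 and 179 in histidine-depleted and 4.27 and 5.49 in tryptophan-depleted libraries. The untreated libraries held 1 read in all against 392 after histidine depletion, a ratio of 360 with a 95% counting interval of 64.3 to 1.43e+04. Its fitted log2 fold change depends on the pseudocount, and with one of 8 it was 4.52, under those of H4C8 (5.77), H2BC4 (5.31), H2BC5 (5.18) and H2BC8 (5.05). Against the 10 reads after tryptophan depletion the ratio was 9.46 (1.35 to 411). The intervals cover counting error only. H1-6 lies within the annotated span of H2BC4 on the same strand, and H2BC4 was higher in the same libraries. The part of transcripts of H2BC4 in the H1-6 level was not tested.

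The members that were lower after histidine depletion all had few reads. The 8 members with a lower mean there were H1-5, H2AC4, H2AC16, H3C1, H3C3, H3C7, H3C11 and H4C1, all short models with an untreated mean of 0.497 to 12.9 scaled reads, and all 8 were also lower after tryptophan depletion. None of them was tested. H1-5 had 9.84 and 15.9 scaled reads in untreated, 0.904 and 5.09 in histidine-depleted and 0 and 0.916 in tryptophan-depleted libraries. H4C1 had 5.47 and 5.97, then 0.904 and 0, then 0 in both tryptophan-depleted libraries. For H1-5 and H4C1, singled out here once their values had been looked at, the untreated libraries lay above all others.

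The genes lie in 6 places of the genome when neighbours within 500 kb are joined. The largest group, 34 genes at chr6:25723397-26285638, summed to 1424 and 1438 scaled reads in untreated, 21037 and 20857 in histidine-depleted and 5525 and 5902 in tryptophan-depleted libraries, 14.7-fold and 3.97-fold higher. The 9 genes at chr1:149782689-149887965 summed to 426 and 444, then 5753 and 5747, then 1381 and 1389, 13.3-fold and 3.17-fold higher. In this group H2BC21 alone made up 77.2% of the untreated sum. The 16 genes at chr6:27807479-27893891 summed to 118 and 142, then 933 and 958, then 297 and 347, which was 7.35-fold and 2.46-fold higher. In this group H2BC15 held 57.6% of the tryptophan-depleted sum, and without it the log2 difference after tryptophan depletion was 0.48 in place of 1.30.

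The 5 genes at chr6:27125897-27147562 had a high untreated sum of 684 and 718 scaled reads, and 4689 and 4875 after histidine and 1242 and 1303 after tryptophan depletion, 6.86-fold and 1.81-fold higher. The pair H2AC25 and H2BC26 at chr1:228434777-228463104 had a sum 2.78-fold and 1.77-fold higher. H4C16, which stands alone at chr12:14767999-14771131, had 35.0 and 40.8 scaled reads, then 99.4 and 97.7, then 52.3 and 45.8, with log2 fold changes of 1.37 ± 0.20 and 0.36 ± 0.25. Thus the summed level of this pair and that of H4C16 had the smallest increases of the 6 groups after histidine depletion, while single members with small increases, such as H2AC20 with a log2 fold change of 0.95, were also found in the larger groups. Every tested member of each group was called higher after histidine depletion, namely 17, 8, 6, 4, 2 and 1 genes in the order given. Of all genes tested there, 39.1% were called higher. Among these members, 11 had an untreated mean under 10 and passed the limit on the level only through the histidine-depleted libraries.

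Set against each other, the histidine-depleted libraries had the higher histone levels. In a fit over all 6 libraries, 36 of 37 tested members were called higher without histidine than without tryptophan and 0 lower, with a median log2 difference of 2.27, while limma called 38.7% of the 18264 genes tested higher and 38% lower. The one not called was H3C6. Of the 37, H1-6, H2AC20, H3C12, H3C13, H3C14, H3C15, H4C3 and H4C4 had untreated and tryptophan-depleted means under 10. These genes passed the limit on the level only through the histidine-depleted libraries. Without that limit the median was 1.94. At a pseudocount of 1 the log2 difference was largest for H1-6 with 5.01, followed by H2BC4 with 4.51, H2BC6 with 4.37, H4C8 with 4.25 and H2BC8 with 4.01. It was smallest among those called for H1-2 with 0.44, H2BC15 with 0.45 and H2AC25 with 0.61. H2BC15 was no longer called in 3 of 6 fits that each left out 1 library, namely histidine-depleted replicate 1, histidine-depleted replicate 2 or tryptophan-depleted replicate 1. The depletions share their untreated libraries, and their responses are given side by side only.

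The responses can also be set out by gene model, that is by whether a transcript is annotated past the stem-loop. Of the 16 members with an extended model, 15 were tested after each depletion. All 15 were called higher after histidine depletion, from 1.37 for H4C16 to 5.99 for H4C8 with a median of 3.63, and 14 after tryptophan depletion, with a median of 1.53. Of the 48 short models, 22 were tested after histidine depletion and all 22 called higher, with a median of 2.94. Of these 22, 11 had an untreated mean under 10 and were tested only through the histidine-depleted libraries, and the median of the other 11 was 2.55. After tryptophan depletion 6 of 13 tested short models (46.2%) were called higher, where 36.1% of all tested genes were, with a median of 0.49, and of 0.39 without the 2 that had an untreated mean under 10. All 15 tested extended models had an untreated mean of at least 10. Extended models held 57.0% ± 0.262 (SD, n = 2) of the histone reads in untreated, 72.7% ± 0.389 in histidine-depleted and 70.9% ± 0.137 in tryptophan-depleted libraries. H2AC6 alone made up 34.6%, 29.1% and 51.1% of the extended sum in the same order, so the share after tryptophan depletion rests largely on this gene. Reads past the stem-loop could not be counted apart, since the tables hold 1 value per gene, and the short models had fewer reads, so that their tests were less precise.

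Of the H2A and H2B genes, 24 form 12 divergent pairs whose start sites lie 169 to 250 bases apart and share the stretch between them. After histidine depletion the H2B gene of the pair had the higher level in 7 pairs and the H2A gene in 4, and in the pair of H2AC1 and H2BC1 both had no reads. Among the 7 are the pairs of H2AC7 with H2BC7 and of H2AC17 with H2BC17. Of the exonic bases of H2AC7 and H2AC17, 85.3% and 71.05% are also annotated to another gene on the same strand. Counting can assign such reads to neither gene, so the H2A levels in these pairs are uncertain. Levels differed widely within some pairs and little within others. H2AC11 and H2BC11 had similar levels, with means of 50.7 and 48.7 scaled reads in untreated, 297 and 399 in histidine-depleted and 68.0 and 82.4 in tryptophan-depleted libraries. Both H2AC14 and H2BC14 had few reads, and their libraries overlapped after histidine depletion (means of 5.14 and 4.80 scaled reads). Their order is therefore not resolved, though the pair is counted among the 4 above. H2AC20 had 7.65 and 10.9 scaled reads in untreated, 22.6 and 15.3 in histidine-depleted and 3.20 and 1.83 in tryptophan-depleted libraries, while its partner H2BC21 reached 4140 and 4160. H2AC12 stayed between 0 and 7.23 scaled reads in all libraries beside H2BC12, and H2AC15 had no reads beside H2BC15. H2AC13 with 130 and 132 after histidine depletion was above H2BC13 with 9.94 and 10.2, and H2AC6 was above H2BC4 in every library.

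The stretches between the partners of 5 of these pairs are given because each joins the annotated starts of both genes. Whether these stretches act as promoters of both genes was not tested. They run on the strand of the H2B gene from the start of the H2A gene to that of the H2B gene in GRCh38, 5′ to 3′, and capitals mark the octamer, the 8-letter motif ATTTGCAT on either strand, which is known from H2B promoters as a site for the POU factor OCT1 (POU2F1).
H2AC6 and H2BC4, chr6:26123927-26124144, minus strand: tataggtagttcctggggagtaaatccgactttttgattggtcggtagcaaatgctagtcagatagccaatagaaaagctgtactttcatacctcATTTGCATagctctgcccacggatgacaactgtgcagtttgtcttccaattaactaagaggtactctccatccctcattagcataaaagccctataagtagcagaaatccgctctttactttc
H2AC8 and H2BC8, chr6:26216689-26216920, minus strand: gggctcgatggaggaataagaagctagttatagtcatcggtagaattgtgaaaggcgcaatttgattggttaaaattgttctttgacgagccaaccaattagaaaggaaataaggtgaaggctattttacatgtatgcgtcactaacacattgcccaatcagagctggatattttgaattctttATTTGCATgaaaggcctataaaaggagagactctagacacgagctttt
H2AC20 and H2BC21, chr1:149886683-149886917, minus strand: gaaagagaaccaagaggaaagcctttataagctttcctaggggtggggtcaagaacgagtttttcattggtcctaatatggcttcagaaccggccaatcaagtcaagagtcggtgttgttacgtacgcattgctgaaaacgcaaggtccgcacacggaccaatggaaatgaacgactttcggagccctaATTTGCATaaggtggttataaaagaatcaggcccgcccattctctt
H2AC12 and H2BC12, chr6:27146856-27147105, minus strand: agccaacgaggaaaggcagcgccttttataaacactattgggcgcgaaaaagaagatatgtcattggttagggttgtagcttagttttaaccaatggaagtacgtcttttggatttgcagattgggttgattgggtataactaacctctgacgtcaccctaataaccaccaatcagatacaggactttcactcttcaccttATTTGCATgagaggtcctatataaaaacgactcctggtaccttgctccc
H2AC15 and H2BC15, chr6:27838376-27838544, plus strand: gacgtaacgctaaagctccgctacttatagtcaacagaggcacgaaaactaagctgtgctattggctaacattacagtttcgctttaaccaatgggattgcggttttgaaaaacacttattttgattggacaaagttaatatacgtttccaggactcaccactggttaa

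Of the 12 stretches, 9 held the octamer, and those of H2BC15, H2BC13 and H2BC26 did not. The octamer was next looked for on both strands in the promoters of RefSeq (GRCh38.p14), which run from 250 bases before to 50 bases after a start site and were given for 62 of the 67 members. It was found for 41.9% of these members and in 1.77% of all 35116 promoters. Members were counted by gene, with a match in any window of the gene, and all promoters by single window. Among classes it was found for 11 of 14 H2A, 14 of 18 H2B and 1 of 11 H3 genes, and for 0 of 6 H1 and 0 of 13 H4 genes. Where both partners of a divergent pair have a window, the octamer of their shared stretch lies in both windows and counts for each. Most H2A matches are therefore the same sites as those of H2B genes, and the matches are not all separate sites. The H3 match is in a window listed for H3C4 that is the same stretch as the H2AC7 promoter, and the other window of H3C4, at chr6:26197237-26197536, had no match. The motif CCAAT, counted in the same way, was found for 83.9% of the members with a promoter given, against 34.6% of all promoters. It was in every H1, H2A, H2B and H3 promoter given and in 3 of 13 H4 promoters (23.1%). TATAAA was found for 66.1% of the members with a promoter given, against 11.5% of all promoters.

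Tested H2B genes with and without the octamer were all called higher after histidine depletion, where 39.1% of all tested genes were. With it, 10 of 10 tested were called, with a median of 3.33, and without it 3 of 3, with a median of 2.96. The 10 include H2BC17, which had an untreated mean of 4.18 and was tested only through its histidine-depleted libraries. After tryptophan depletion, 7 of 9 with the octamer were called higher, with a median of 1.04, where 36.1% of all tested genes were called. The 4 H2B genes without a match were H2BC5, H2BC13, H2BC15 and H2BC26, and the 3 of them that were tested were called higher with a median of 2.29. Of the H2A genes, 4 of 4 tested with the octamer and 2 of 2 without it were called higher after histidine depletion, with medians of 2.76 and 2.54. After tryptophan depletion 1 of 3 with it was called, with a median of 0.39, and 2 of 2 without it, with a median of 0.93. H2AC20, with the octamer, and H2AC13, without it, had untreated means of 9.30 and 9.74. H2AC20 was tested only through its histidine-depleted libraries, and H2AC13 only through depleted libraries in both comparisons, so the medians without the octamer rest in part on it. A match is a description of the letters in the window.

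Genes that act on histone genes or with histones were taken from fixed lists, and those named were tested with limma over all genes. Their counts stand beside the shares of all genes called, which were 39.1% higher and 38.2% lower after histidine and 36.1% and 34.8% after tryptophan depletion. Of 22 genes of S-phase replication, 0 were higher and 21 fell after histidine depletion, with a median of -1.36, and all 22 fell after tryptophan depletion, with a median of -2.72. PCNA, the sliding clamp of DNA polymerases, had 7484 ± 103 scaled reads (SD, n = 2) in untreated, 3709 ± 162 in histidine-depleted and 1220 ± 47.3 in tryptophan-depleted cells, and its log2 fold changes were -1.0 ± 0.051 (limma adjusted p = 4.98e-15) and -2.62 ± 0.050 (limma adjusted p = 1.85e-90). CDC45, a helicase component, fell in both, with log2 fold changes of -0.88 and -4.56. They were -1.92 and -3.84 for CDT1, a licensing factor, and -1.60 and -3.84 for MCM5 of the replicative helicase. TYMS, the thymidylate synthase, had -2.65 and -3.92. CCNA2 was the one not called after histidine depletion (-0.00). Thus the S-phase genes were lower in the same libraries in which the histone sums were higher.

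Of 9 genes of histone gene transcription, 3 rose and 5 fell after histidine depletion, and 1 rose and 7 fell after tryptophan depletion. NPAT, the coactivator of histone genes that is switched on by cyclin E and CDK2, had 2250 ± 57.9 scaled reads in untreated, 3081 ± 90.7 in histidine-depleted and 1721 ± 82.4 in tryptophan-depleted cells. Its log2 fold changes were 0.46 ± 0.054 (limma adjusted p = 3.28e-08) and -0.39 ± 0.054 (limma adjusted p = 5.60e-11). The cyclins CCNE2 and CCNE1 fell, with log2 fold changes of -0.71 and -2.86 for CCNE2 and of -0.86 and -2.13 for CCNE1. The phosphatase CDC25A (-0.70 and -1.94) and the kinase CDK2 (-0.30 and -1.49) fell as well. POU2F1, the octamer factor named above, rose after histidine (0.55) and fell after tryptophan depletion (-0.79), while HINFP rose after both (0.71 and 0.37).

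Of 10 genes of histone mRNA 3′ processing, 6 rose and 3 fell after histidine and 4 rose and 6 fell after tryptophan depletion. SLBP, the stem-loop binding protein, had 3686 ± 60.1 scaled reads in untreated, 3138 ± 96.8 in histidine-depleted and 2278 ± 18.1 in tryptophan-depleted cells, with log2 fold changes of -0.22 (limma adjusted p = 0.000413) and -0.70 (limma adjusted p = 1.64e-27). CPSF3, the nuclease that cuts histone and other mRNAs, fell, with log2 fold changes of -0.35 and -0.72. Its partner CPSF2 rose by 0.98 and 0.96. CSTF2, of the general cleavage machinery, rose after histidine (0.69) and fell after tryptophan depletion (-0.73), and the cap-binding subunit NCBP2 rose by 0.72 and 0.27.

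Of 7 genes of histone mRNA decay, 6 rose and 1 fell after histidine depletion, and 1 rose and 4 fell after tryptophan depletion. LSM1 of the ring that binds the tails of decaying mRNAs had 394 ± 9.29 scaled reads in untreated, 1161 ± 79.2 in histidine-depleted and 366 ± 29.8 in tryptophan-depleted cells, with a log2 fold change of 1.57 ± 0.077 after histidine depletion (limma adjusted p = 3.12e-15) and -0.11 ± 0.093 after tryptophan depletion (limma adjusted p = 0.274). TUT7, a uridylyl transferase, rose by 1.12 and 0.62. The helicase UPF1 rose after histidine (0.87) and fell after tryptophan depletion (-0.19), and LSM4 fell after both (-0.88 and -0.72).

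Histone chaperones, which carry new histones to DNA, did not follow the histone genes. Of 11, 0 rose and 7 fell after histidine depletion, and 0 rose and 9 fell after tryptophan depletion, by limma. CHAF1B of the chromatin assembly factor had log2 fold changes of -1.91 after histidine and -3.04 after tryptophan depletion, and CHAF1A of the same complex -1.66 and -2.61. For ASF1B, which hands H3 and H4 on, they were -1.30 and -2.80, and for NASP, an H3 and H4 carrier, -1.23 and -2.29.

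Replacement histones had no common direction after histidine depletion, with 4 of 11 higher and 4 lower, which is close to the shares of all genes, and after tryptophan depletion 2 were higher and 8 lower. H3-3B, which codes for the replacement histone H3.3, had 28490 ± 1702 scaled reads in untreated, 62110 ± 1145 in histidine-depleted and 22610 ± 122 in tryptophan-depleted cells, with log2 fold changes of 1.13 ± 0.059 (limma adjusted p = 9.92e-15) and -0.34 ± 0.051 (limma adjusted p = 1.57e-09). H1-10 had log2 fold changes of -1.20 and -0.36, H2AZ1 of -0.23 and -0.90, and the centromeric CENPA of -0.78 and -2.13, all past the threshold. H2AX, the variant that marks DNA damage when phosphorylated, rose after histidine (0.45) and fell after tryptophan depletion (-1.55).

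**Figure D3:**
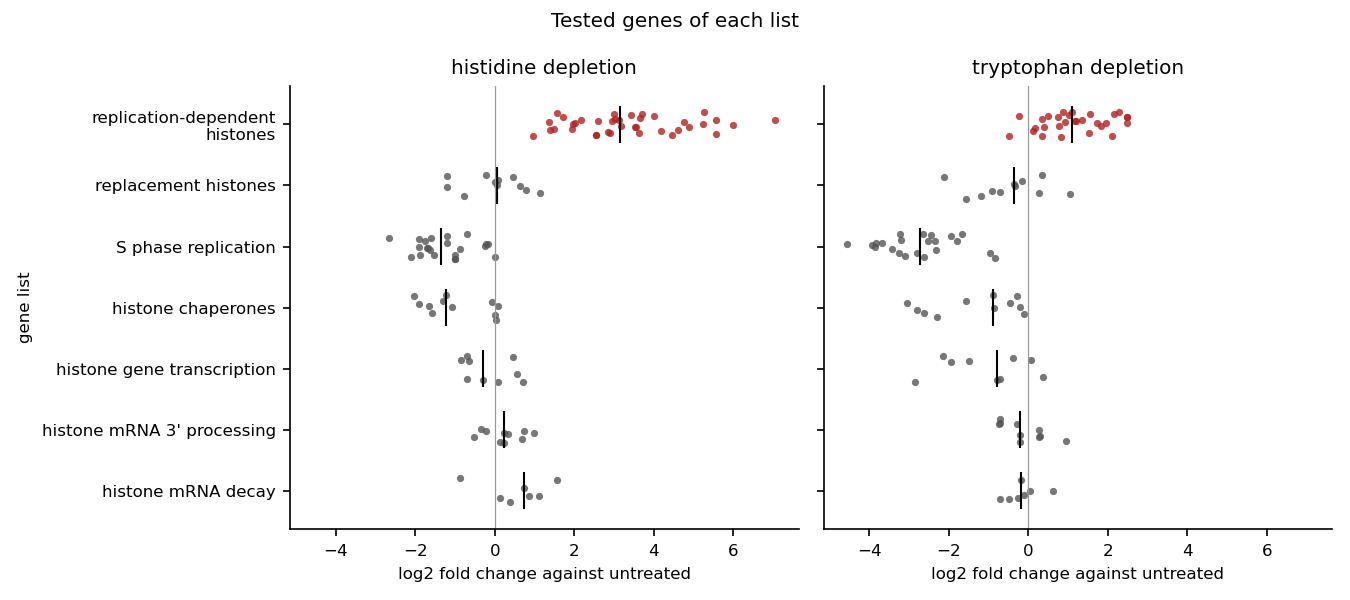
Log2 fold change against untreated of each tested gene in the replication-dependent histone family (red) and in the 6 fixed lists (grey), with a line at the median of each. The histone family lies at a median of 3.15 and 1.09, and the S-phase replication genes at -1.36 and -2.72.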

How the data were processed

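HT29 RNA was sequenced in 6 libraries, made with the TruSeq stranded mRNA kit and adapters with molecular identifiers and read for 150 cycles. Per the submitters' processing notes and the study's methods, the authors used STAR 2.7.10a for alignment to GRCh38, HTSeq 2.0.5 for counts on exons and DESeq2 for normalization. How identifiers, strand and reads with several matches were handled was not given in the sources used here. The authors deposited a signal table per depletion, gene counts divided by size factors, with the same untreated libraries in both. All deposited values were whole multiples of 1 step per library (tolerance 0.001), which gave the reads back.

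Fits used limma 3.58.1 with trend in R 4.3.3 on log2(value + 1) of genes with a mean of at least 10, within a table for each depletion and on median-of-ratios scaled reads of all 6 libraries for the direct comparison, two-sided, with Benjamini-Hochberg adjustment over all genes tested and a threshold of 0.05. The pseudocount understates changes of low genes. Fits were tested on simulated data. Ratios resting on 1 to 3 untreated reads have exact 95% counting intervals. Read totals set the precision, and counting error is the least error of a value.

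The members and gene lists were chosen with earlier results of these data known. Named were up to 4 members per class with the highest mean and the 3 with the largest increase per depletion at a mean of at least 100, and from each list up to 4 genes with the largest change past the threshold, plus NPAT, SLBP, CCNE2, H3-3B, H2AZ1 and PCNA. Not every gene that this rule names is reported here, and POU2F1 and HINFP are reported outside it. Models, overlaps and stem-loops came from gencode 44 and GRCh38, with 60357 of 60676 identifiers matched, and promoters from RefSeq. Alternatives tried were other pseudocounts (0.5 and 8), other filters (none, or a mean of at least 50), limma without trend, a replicate block, another set of libraries, each library left out, and tests on the recovered reads with edgeR 4.0.16 and DESeq2 1.42.0. For sums they were CPM scaling and leaving out the member with most reads. Python 3.11.15 with pandas 2.3.3, numpy 2.4.6, scipy 1.17.1 and matplotlib 3.10.9 was used for tables and plots.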

Additional observations from a re-analysis of the deposited data

Results flagged for a closer look

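In 4 of the members tested against untreated in either depletion, the depletions lay on opposite sides of untreated cells, with both histidine-depleted libraries above and both tryptophan-depleted libraries below both untreated ones. The direct comparison of the depletions called H1-4, H4C4 and H2AC20 higher without histidine and did not test H2BC17. In that comparison H4C4 and H2AC20 passed the limit on the level only through their histidine-depleted libraries. Against untreated cells after tryptophan depletion, H1-4 was tested and not called (log2 fold change -0.49 ± 0.43), H2AC20 was called lower only without a limit on the level, and H4C4 and H2BC17 were too low to be tested with that limit and were not called lower without it. H1-4 was 6.23-fold higher after histidine depletion and had 0.680 of the untreated mean after tryptophan depletion. For H4C4 the ratios were 13.6 and 0.734, for H2BC17 4.60 and 0.566 and for H2AC20 2.04 and 0.271. All 4 have short models, and all but H1-4 had fewer than 11 scaled reads in each untreated library.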

How the results depend on the processing

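No alternative turned the direction of a median, and the counts of members called higher stayed within 1.5 times of those reported under every alternative run. The counts of members called lower, 0 in each comparison, became 2 for histidine (H1-5 and H4C1) and 4 for tryptophan depletion (H1-5, H2AC20, H3C1 and H4C1) without a filter. The members' median of 3.15 on the log2 scale after histidine depletion was 3.26 with DESeq2, 3.23 with edgeR, 3.005 at a mean of at least 50, 2.35 without a filter, and 3.25 and 2.67 with pseudocounts of 0.5 and 8. The median of 1.09 after tryptophan depletion was 1.54 at a mean of at least 50, 0.42 without a filter and 0.90 with a pseudocount of 8, and that of 2.27 between the depletions was 2.01, 1.94 and 2.08 in the same order. Leaving out 1 library at a time gave medians of 3.13 to 3.18 after histidine, 0.95 to 1.12 after tryptophan depletion and 2.21 to 2.27 between them. With a replicate block the members called higher numbered 38, 21 and 36, as without it. The replicate numbers only name the libraries, since the deviations of libraries with the same number correlated at 0.11 (untreated and histidine), -0.018 and -0.051, so no pairing was used. Scaling to CPM shifted the median of all genes by more than 0.1 after histidine depletion, to -0.18, and the log2 difference of the summed levels to 3.26 over all members, 2.03 (H1), 2.88 (H2A), 3.70 (H2B), 2.13 (H3) and 3.596 (H4), and in the groups on the genome, in the order H2BC18 to H2AC21, H2AC25 and H2BC26, H2AC1 to H4C8, H2BC11 to H2AC12 and H4C16, to 3.54, 1.285, 3.69, 2.59 and 1.20. For tryptophan depletion that scaling gave 1.52 over all members, 1.33 (H1), 1.31 (H2B) and 1.59 (H2BC18 to H2AC21), and between the depletions 1.74 over all members. Leaving out the member with most reads gave 1.26 over all members after tryptophan depletion and 2.145 between the depletions. After histidine depletion it gave 3.075 for H1, 1.82 for H2A, 3.59 for H2B, 2.83 for H3 and 2.795 for H4, and 4.02, 2.20, 4.08 and 2.64 for the first 4 groups on the genome. After tryptophan depletion it turned the H1 sum to -0.52, since H1-2 holds most H1 reads, and gave 0.66 for H2A, 1.32 for H2B, 0.53 for H3 and 1.505 for H4, and 2.05, 1.38, 1.49, 0.75 and 0.48 for the groups on the genome up to that of H2BC13 to H2BC17. Among single members, the tryptophan response of H2AC11 passed the threshold without tryptophan-depleted replicate 1, and that of H3C8 without untreated replicate 1 or in a fit on all 6 libraries, while H2BC15 between the depletions no longer passed it in 3 fits without 1 library. The cause was not tested. Members with a mean under 10 were left untested by the filter, and at their few reads counting error is large.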
